A study of Mus musculus with 7 samples.

Results

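The comparison set spleen monocytes given the antibody HL7G against unstimulated spleen monocytes of the same mice. Its members were chosen by their titles: the 2 arrays titled HL7G and the 2 arrays titled unstimulated, 4 of the 7 arrays in the series, paired by the mouse number. RNA was read on Affymetrix Mouse Gene 2.0 ST arrays, and every value below is a log2 expression level or a log2 difference, so that 1 unit is a 2-fold difference. HL7G was added at 400 ng/ml for 3 h to selected cells whose EPCR (the receptor for protein C on endothelium, gene Procr) was wild-type. Mouse 1 and mouse 2 each gave 1 array to each group. The protocol lists an IgG control at the same dose, which was not analysed here, so the contrast is with cells that received no antibody. The sources used here do not say how the monocytes were selected, how long the unstimulated cells were cultured, or the strain, age and sex of the mice. The other 3 arrays were 1 sample each of mouse 1 given poly I:C at 1 µg/ml, CpG B at 2.5 µM or R848 at 2 µg/ml, also for 3 h, agonists of nucleic acid-sensing Toll-like receptors (TLRs). They enter below as the range of a gene on those 3 arrays.

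HL7G is a monoclonal antiphospholipid antibody. Such antibodies mark the antiphospholipid syndrome, in which they are tied to thrombosis and pregnancy loss and act on monocytes, endothelium and platelets. Lipid-reactive antiphospholipid antibodies have been reported to bind lysobisphosphatidic acid (LBPA) presented by EPCR, to enter endosomes, and to signal through the endosomal NADPH oxidase and TLRs towards cytokine, tissue factor and interferon responses. The gene groups below follow that route, from cytokines and interferon-response families to receptors, oxidase, lipid handling and antigen presentation.

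Several monocyte markers were dim on all arrays. A gene was tested where it reached a level of 5 on at least 1 of the 7 arrays, and of 14 monocyte markers on the array 9 did so. Of these 9, Irf8 and Lyz2 were called higher (22.2%, against 16.3% of all genes tested). Cx3cr1 went the other way, at 6.05 and 6.50 on the unstimulated arrays of mouse 1 and mouse 2 and 5.64 and 5.26 on their HL7G arrays. It was not called (difference -0.82 ± 0.26, adjusted p = 0.0692 in limma). Under each of the 3 rescalings described below it was called lower, with differences of -0.95 to -1.28. Ly6c2 and Ccr2, which define classical monocytes, lay between 3.74 and 4.38 and between 3.76 and 4.09 over the 7 arrays, and the integrin Itgam, the Fc receptor Fcgr1 and the macrophage protein Adgre1 also stayed under 5. Markers of other leukocytes were present and were higher with HL7G. Of 8 tested B cell markers 6 were called higher and of 9 tested T cell markers also 6, where called means an adjusted p under 0.05 in limma, against 16.3% of all genes tested called higher. The summed linear level of the B cell list was 476 and 694 on the unstimulated arrays of mouse 1 and mouse 2 and 1045 and 1077 on their HL7G arrays. The T cell list summed to 325 and 366 against 1039 and 843. The monocyte list summed to 460 and 515 against 910 and 655. In such mixed RNA a different number of cells of a type and a different amount of RNA per cell cannot be told apart. Of the NK cell, neutrophil, erythroid, platelet and dendritic cell lists no tested member was called, and their tested members numbered 2, 5, 2, 3 and 5. The dendritic cell list summed to 496 and 780 unstimulated and 960 and 1118 with HL7G, although its tested members had a median difference of 0.13. Its bright member Cd209a read 8.27 and 9.29 unstimulated and 9.39 and 9.92 with HL7G. The NK cell, erythroid and platelet sums were lower with HL7G in both mice, and the neutrophil sum changed little.

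The unstimulated arrays read many abundant transcripts lower than all others, most of all that of mouse 1. Fth1, the ferritin heavy chain, read 6.56 and 9.65 on the unstimulated arrays of mouse 1 and mouse 2, 10.39 and 10.34 on the HL7G arrays and 9.87 to 10.14 on the 3 agonist arrays. Its difference of 2.26 ± 0.85 was 0.72 without the mouse 1 unstimulated array, and it was not called (adjusted p = 0.107, 0.0418 with the mouse as a block). The difference between the groups was larger for brighter genes. Genes with a mean level of 5 to 6 (5970 genes) had a median difference of 0.07 between HL7G and unstimulated samples, those of 6 to 7 (1018 genes) 0.75, those of 7 to 8 (175 genes) 1.43, those of 8 to 9 (57 genes) 1.85 and those of 9 or more (87 genes) 1.21. At 8 to 9 the median was 2.47 in mouse 1 and 0.96 in mouse 2. List medians are therefore given also with cyclic loess over the genes tested ("with loess"), or without 1 array, where that moved them by over 1.5 times, and for some other lists.

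**Figure D1:**
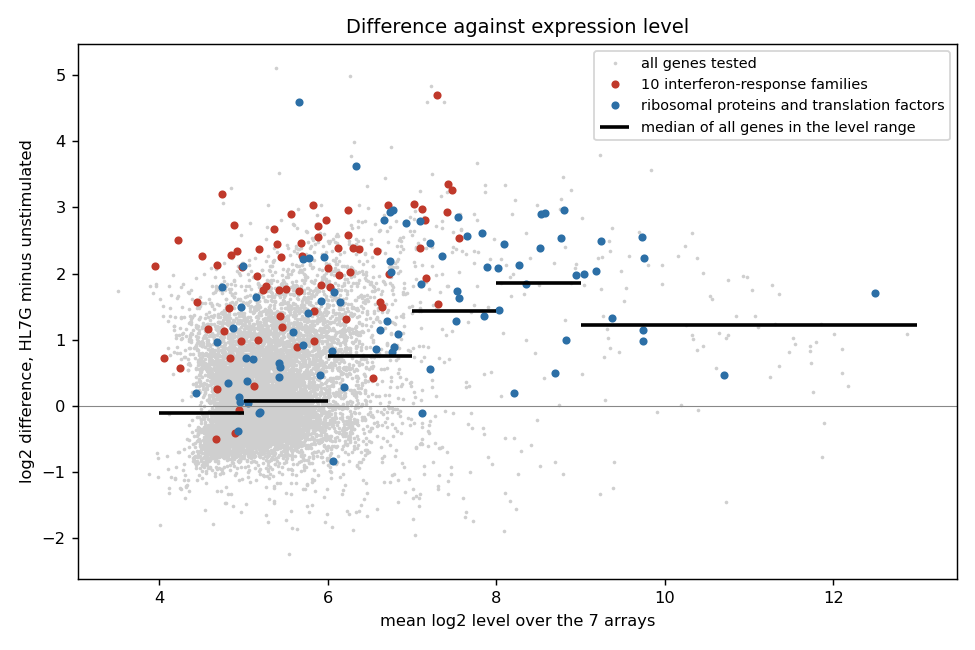
Log2 difference between HL7G and unstimulated samples (y axis) against the mean log2 level over the 7 arrays (x axis) for each gene tested. Black bars are the medians of all genes in a level range, from -0.11 under a level of 5 to 1.85 at 8 to 9, and the interferon-response families (red) have a median of 2.08.

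Of 22180 genes on the array 11119 were tested and 2024 called (18.2%), 1814 of them higher with HL7G (16.3%) and 210 lower (1.89%), by limma with Benjamini-Hochberg adjustment. Both HL7G arrays lay above both unstimulated arrays for 4510 genes (40.6%) and below both for 3321 (29.9%). These shares are the background for every count below. The median difference over all genes tested was 0.06, with 0.02 in mouse 1 and 0.12 in mouse 2. Differences of at least 2-fold in both mice were seen for 957 higher and 74 lower genes, of at least 4-fold for 81 and 1, and of at least 8-fold for 9 and 0. All calls but 2 were lost without the mouse 1 unstimulated array, which left 1 residual degree of freedom. Leaving out any other of the 4 arrays left 1 residual degree of freedom as well. Differences of called genes are given without the mouse 1 unstimulated array where that moved them by over 1.5 times, and for some others.

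Among the inflammatory cytokines Tnf, Il1b, Il1a and Il6 were called higher, of which Il6 stayed dim. Of 11 tested members 5 were called higher and none lower, and the median was 0.84 (0.74 with loess, 0.97 without the mouse 1 unstimulated array). It was 0.30 without the mouse 1 HL7G array and 0.50 where a gene's probe sets were averaged. Over all 18 listed cytokines on the array, tested or not, it was 0.32. Tnf, the cytokine tumour necrosis factor, read 4.97 and 5.99 unstimulated (mouse 1 first, here and below) and 7.82 and 8.09 with HL7G. The agonist arrays of mouse 1 lay between 6.06 and 7.53. The HL7G arrays were thus the highest of the 7, and the difference was 2.48 ± 0.35 (SE, n = 2 against 2, adjusted p = 0.0120 in limma), or 1.55 with loess. Il1a, the alarmin interleukin-1 alpha, read 4.13 and 4.16 unstimulated, 5.77 and 6.17 with HL7G and 3.91 to 5.09 with the agonists. It was 3.53-fold higher (difference 1.82 ± 0.23, adjusted p = 0.0120), and neither loess (1.84) nor leaving out the mouse 1 unstimulated array (1.80) moved that value. Il6, which drives the acute phase response, was dim, at 3.16 and 3.26 unstimulated and 5.03 and 4.63 with HL7G, yet both HL7G arrays stood above all others (difference 1.62 ± 0.23, adjusted p = 0.0120, a call lost with a variance trend). Il6 reached the level of 5 on the mouse 1 HL7G array alone, and so entered the test by being high there. Il1b, the secreted interleukin-1, read 5.02 and 6.50 unstimulated and 7.57 and 8.27 with HL7G. Its unstimulated arrays were 1.48 apart. Its difference was 2.16 ± 0.48 (adjusted p = 0.0264), or 1.42 without the mouse 1 unstimulated array, and the call was lost with loess (1.18, adjusted p = 0.109).

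Of 9 tested chemokines 5 were called higher, and the median was 0.93 (0.41 with loess). Over all 17 chemokines on the array, tested or not, it was 0.35. Ccl3, which recruits monocytes and T cells, read 4.74 and 6.41 unstimulated and 8.84 and 8.77 with HL7G, against 7.58 to 7.81 with the agonists. Both HL7G arrays were nearly equal and above every other array, while the unstimulated arrays were 1.67 apart, so that the difference was 3.23 ± 0.49 (adjusted p = 0.0125) and 2.40 without that of mouse 1. Cxcl10, a ligand of CXCR3 induced by interferon, read 4.44 and 4.61 unstimulated and 7.77 and 6.21 with HL7G, and there the HL7G array of mouse 1 was the higher one. Ccl5 rose by 2.29 ± 0.31 and Ccl4 by 1.57 ± 0.36. With loess these were 0.88 and 0.41, and Ccl4 lost its call (adjusted p = 0.286). Among the immunometabolic enzymes 3 of 14 were called higher (21.4%, against 16.3% of all genes tested), with a median of 0.05. They included Acod1, which makes itaconate in activated macrophages, at 5.05 and 5.57 unstimulated and 7.05 and 6.95 with HL7G (difference 1.70 ± 0.25, adjusted p = 0.0123). Nampt, the rate-limiting enzyme of NAD salvage, read 3.15 and 3.00 unstimulated and 7.57 and 5.62 with HL7G, and the smaller of its differences within a mouse was 2.62. Ptgs2, the inducible cyclooxygenase, had 0.73 ± 0.35 and was not called (adjusted p = 0.182).

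**Figure D2:**
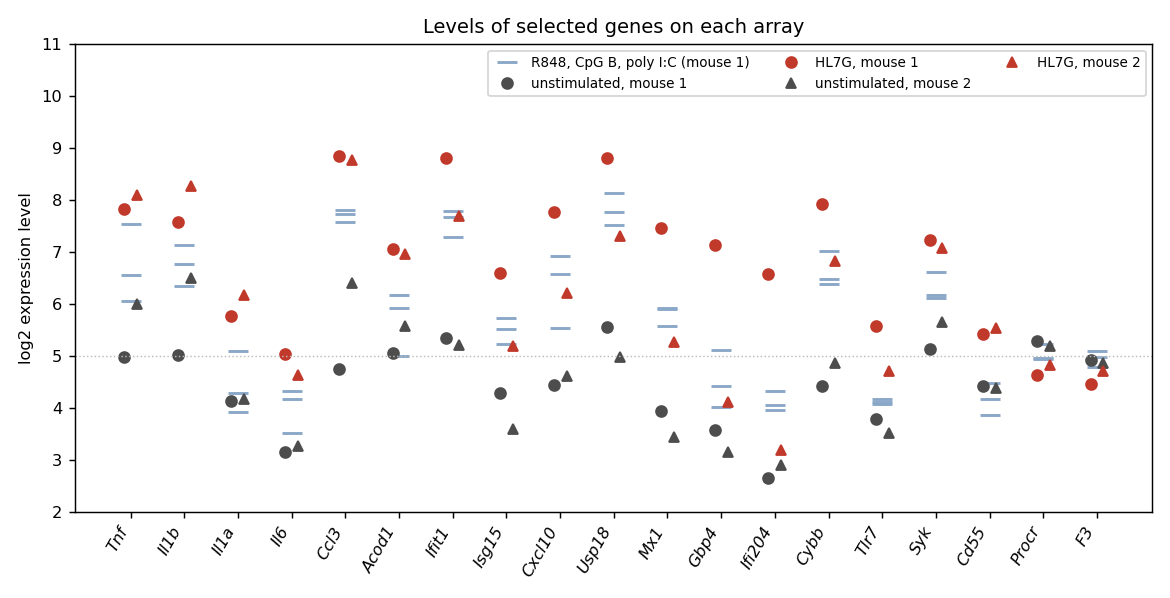
Log2 expression level (y axis) of 19 genes (x axis) on each of the 7 arrays, as points for the 4 HL7G and unstimulated samples of mouse 1 (circles) and mouse 2 (triangles) and as dashes for the 3 agonist arrays of mouse 1, with a dotted line at the level of 5. Tnf, Il1a, Ccl3 and Acod1 were alike on both HL7G arrays and highest there, whereas Mx1, Gbp4 and Ifi204 were high on the HL7G array of mouse 1 and at least 2 units lower on that of mouse 2.

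Most NF-kB genes of the inflammatory response were higher too. Of 10 tested NF-kB subunits and inhibitors 8 were called higher, with a median of 1.88 (1.28 with loess, 1.81 without the mouse 1 unstimulated array). Rela, the main activating subunit, read 4.70 and 4.63 unstimulated and 7.01 and 6.59 with HL7G (difference 2.14 ± 0.24, adjusted p = 0.0120). Rel and Nfkb2, which encode c-Rel and the p100 precursor, rose by 2.80 ± 0.47 and 2.41 ± 0.41 (1.39 for Nfkb2 with loess). Nfkbiz, a nuclear coactivator of secondary cytokine genes, rose by 2.99 ± 0.56, with 3.99 in mouse 1 and 1.99 in mouse 2. Bcl3, an atypical inhibitor, had 1.18 ± 0.41 and was not called. Of 15 tested negative regulators and mRNA decay factors 8 were called, with a median of 1.01. Zfp36, which destabilises cytokine mRNA, read 5.21 and 5.30 unstimulated and 7.49 and 7.09 with HL7G (difference 2.03 ± 0.23, adjusted p = 0.0120), and Tnfaip3, the ubiquitin-editing enzyme A20, rose by 1.69 ± 0.42, a call lost with loess (0.73). The immediate-early AP-1, EGR and MYC factors had 5 of 21 members called (23.8%, against 16.3% of all genes tested called higher). Their median was 0.89 (0.33 with loess, 0.54 without the mouse 1 HL7G array), and 2 of the 5 calls held with both loess and quantile normalization. Myc (2.35 ± 0.45), Junb (1.78 ± 0.28) and Btg2 (1.45 ± 0.24) were among those called, and of these Myc and Junb lost the call with loess (0.94 and 0.74). Jun had 1.84 ± 0.57 (adjusted p = 0.0646, 0.0186 with the mouse as a block). Of 7 tested MAP kinase phosphatases, which switch that branch off, Dusp2 alone was called (0.94 ± 0.21), and with loess it had 0.015 and was not called. The share of this list called higher was 14.3%, near the 16.3% of all genes tested.

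Promoter letters were searched for the motif of NF-kB in the 250 bases before each start, in RefSeq sequence of build GRCm38.p6. The letters GGGNNTTTCC (or GGAAANNCCC on the other strand) occurred in the promoters of 7 of the 22 called members (31.8%) of the 4 inflammatory groups (cytokines, chemokines, NF-kB genes, brakes and decay factors) that had an entry, against 2.64% of all genes called higher with an entry and 1.65% of all 27025 genes with an entry. Over all tested members of these groups the share was 25.0% (9 of 36). The groups were chosen for their known biology, so the share is no finding about HL7G. Of the called members with a match, 4 are shown with the match in capitals, each on the strand of its gene.
Il6 (chr5:30013040-30013109, plus strand): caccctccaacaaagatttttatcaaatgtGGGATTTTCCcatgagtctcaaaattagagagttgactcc
Rel (chr11:23771021-23771090, minus strand): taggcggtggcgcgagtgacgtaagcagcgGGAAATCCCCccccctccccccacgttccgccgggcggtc
Tnfaip3 (chr10:19015411-19015480, minus strand): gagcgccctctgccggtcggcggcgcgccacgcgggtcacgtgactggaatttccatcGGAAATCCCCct
Nfkb2 (chr19:46304667-46304736, plus strand): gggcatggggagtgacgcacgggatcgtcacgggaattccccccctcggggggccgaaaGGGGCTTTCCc
The match ended 34 bases before the start in Il6, 81 in Rel, 2 in Tnfaip3 and 1 in Nfkb2, where Tnfaip3 and Nfkb2 have 2 and 3 listed starts and the window of 1 start is shown. Tnf, Ccl3, Il1b and Acod1 had no match of these letters in that window.

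Each of 10 interferon-response families held called members. Over these families 73 of 85 members on the array were tested, 45 were called higher (61.6%) and none lower, and both HL7G arrays lay above both unstimulated arrays for 67 (91.8%, against 40.6% of all genes tested). The median difference was 2.08, and it was 1.598 with loess and 2.04 without the mouse 1 unstimulated array. On the unstimulated arrays 48 of the 73 were under the level of 5, and a member that entered the test through an HL7G array alone had to differ. Such genes are transcribed after interferon receptors or cytosolic sensors activate IRF and STAT factors.

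Among the IFIT proteins, which bind viral RNA, 3 of 5 tested members were called. Ifit1 read 5.33 and 5.203 unstimulated, 8.81 and 7.70 with HL7G and 7.29 to 7.79 with the agonists, which puts the HL7G array of mouse 2 inside the agonist range. It was 7.91-fold higher (difference 2.98 ± 0.36, 1.81 with loess, adjusted p = 0.0120). Ifit3 was not called, at 6.21 and 6.32 unstimulated and 6.65 and 6.71 with HL7G (difference 0.42 ± 0.21, adjusted p = 0.196, and -0.39 with loess). Of 8 tested PYHIN proteins, a family of nuclear and cytosolic DNA sensors, 5 were called, and all 8 were under 5 on both unstimulated arrays. Ifi209 read 3.55 and 4.47 unstimulated and 9.34 and 8.09 with HL7G, and Mndal 2.72 and 2.85 unstimulated and 6.53 and 5.45 with HL7G. Their differences were 4.70 ± 0.46 and 3.21 ± 0.36 (adjusted p = 0.0120 and 0.0120). Ifi204 was high on 1 HL7G array only, at 2.64 and 2.89 unstimulated and 6.56 and 3.18 with HL7G, and was not called (difference 2.11 ± 0.93, adjusted p = 0.154).

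The interferon-inducible GTPases attack vacuoles of intracellular pathogens. Of 8 guanylate-binding proteins tested 4 were called, with a median of 2.35 (2.03 with loess, 1.20 without the mouse 1 HL7G array). Gbp9 read 5.36 and 5.22 unstimulated and 8.97 and 7.73 with HL7G, and Gbp8 4.31 and 4.96 unstimulated and 8.09 and 7.24 with HL7G. Their differences were 3.06 ± 0.39 (1.94 with loess) and 3.04 ± 0.35. Gbp4 read 3.57 and 3.14 unstimulated and 7.14 and 4.12 with HL7G, a difference of 3.57 in mouse 1 and 0.97 in mouse 2, and was not called (adjusted p = 0.104, 0.0262 with the mouse as a block). Of 6 immunity-related GTPases tested 4 were called, and Igtp, a regulatory member, read 4.10 and 4.08 unstimulated and 7.63 and 6.61 with HL7G (difference 3.03 ± 0.34, adjusted p = 0.0120). Iigp1 was high on the HL7G array of mouse 1 alone, at 4.57 and 4.65 unstimulated and 7.20 and 4.74 with HL7G, and was not called.

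Sensors and effectors of antiviral defence followed. Cytosolic RNA and DNA sensing genes had 7 of 9 tested members called and a median of 2.39 (1.57 with loess). Ifih1, the RNA sensor MDA5, read 3.77 and 3.90 unstimulated and 7.53 and 5.95 with HL7G (difference 2.91 ± 0.47), and Ddx58, the sensor RIG-I, rose by 2.39 ± 0.46. Eif2ak2, the kinase PKR, rose by 2.73 ± 0.60. Samhd1, which depletes nucleotides, rose by 3.27 ± 0.43 (1.91 with loess). Of the OAS family 2 of 5 tested members were called, Oasl1 (1.98 ± 0.55, not called with loess at 1.43) and Oas1b (1.74 ± 0.35), and Oas2 had 1.80 ± 0.54 (adjusted p = 0.0587, 0.0152 with the mouse as a block). Interferon-induced PARPs had 3 of 5 members called, among them Parp14 (3.35 ± 0.51, 2.02 with loess) and the RNA-binding Zc3hav1 (2.27 ± 0.31). The Schlafen family had 4 of 6 members called. Slfn2, needed for quiescence of leukocytes, read 5.08 and 6.08 unstimulated and 8.71 and 8.31 with HL7G (difference 2.93 ± 0.35, 1.598 with loess), and Slfn1 lost its call with loess (1.93 ± 0.35, then 0.73).

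ISG15 conjugation, in which a ubiquitin-like protein is attached to other proteins, had 5 of 6 tested members called and a median of 2.46 (1.63 without the mouse 1 HL7G array). Isg15 itself read 4.28 and 3.58 unstimulated and 6.60 and 5.19 with HL7G (difference 1.96 ± 0.47, adjusted p = 0.0318). Its activating enzyme Uba7 read 4.83 and 4.84 unstimulated and 7.93 and 6.49 with HL7G, and Usp18, the protease that removes it and damps the interferon receptor, 5.54 and 4.97 unstimulated and 8.81 and 7.30 with HL7G (difference 2.80 ± 0.48, 1.61 with loess). The ligase Herc6 rose by 2.55 ± 0.55. The conjugating enzyme Ube2l6 had 0.30 ± 0.21 and was the member not called. Of 15 tested restriction factors 8 were called. Trim25, a ligase that activates RIG-I, read 4.63 and 4.65 unstimulated and 7.95 and 7.26 with HL7G (difference 2.96 ± 0.28, adjusted p = 0.0120). Mx1 and Mx2, antiviral dynamin-like GTPases, rose by 2.68 ± 0.64 and 2.72 ± 0.49, and Bst2, which tethers budding virions, had 1.75 ± 0.80 and was not called (adjusted p = 0.162, 0.0431 with the mouse as a block).

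The motif of interferon-stimulated genes was searched in the same windows. The letters GAAANNGAAA (or TTTCNNTTTC on the other strand) occurred in 25 of the 54 promoters (46.3%) that the 10 families had, against 3.28% of all genes tested with an entry and 3.46% of all genes with an entry. The share was 47.1% among members called higher (16 of 34) and 45.0% among members not called (9 of 20). The families were chosen for their known response to interferon, so the share is no finding about HL7G. Of the genes described with a match, 4 are shown with the matches in capitals.
Ifit1 (chr19:34640774-34640843, plus strand): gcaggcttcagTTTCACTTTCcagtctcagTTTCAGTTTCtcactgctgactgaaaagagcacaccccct
Isg15 (chr4:156200845-156200914, minus strand): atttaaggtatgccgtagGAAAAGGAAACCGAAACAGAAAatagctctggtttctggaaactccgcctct
Igtp (chr11:58199486-58199555, plus strand): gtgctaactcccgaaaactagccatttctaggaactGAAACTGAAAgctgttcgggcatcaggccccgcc
Stat2 (chr10:128270248-128270317, plus strand): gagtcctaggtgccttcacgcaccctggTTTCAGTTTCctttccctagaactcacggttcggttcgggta
Ifit1 had 2 matches, Isg15 3 that overlap one another, and Igtp and Stat2 1 each. Ifi209, Trim25, Slfn2, Oasl1 and Irf7 had no match of these letters in that window.

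Transcription factors and receptors of the interferon pathway were mostly higher. Of 13 tested IRF and STAT factors 10 were called, with a median of 1.90 (1.30 with loess). For all 13 both HL7G arrays lay above both unstimulated arrays, against 40.6% of all genes tested. Stat2, a subunit of the complex that binds the motif above, read 4.90 and 4.70 unstimulated and 8.26 and 6.85 with HL7G (difference 2.75 ± 0.43, adjusted p = 0.0132). Irf2, Irf4 and Irf8 rose by 2.08 ± 0.34, 2.15 ± 0.55 and 2.17 ± 0.52, and Irf8 lost the call with loess (1.06). Irf7, the amplifier of type I interferon, read 5.16 and 5.37 unstimulated and 8.37 and 6.10 with HL7G and was not called (difference 1.97 ± 0.65, adjusted p = 0.0762, 0.0364 with the mouse as a block). Irf3, which is activated by phosphorylation, had 0.63 ± 0.23 and was not called. Of 8 interferon receptor chains and JAK kinases 6 were called, with a median of 1.09. Jak1 and Jak2 rose by 2.23 ± 0.33 (1.23 with loess) and 2.11 ± 0.30. The gamma receptor chain Ifngr1 rose by 1.53 ± 0.22 and the type I chain Ifnar2 by 1.12 ± 0.31, which was not called with loess (0.52), while Ifnar1 had 0.97 ± 0.29 (adjusted p = 0.0577).

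Most interferon-response genes were higher on the HL7G array of mouse 1 than on that of mouse 2. For 71 of the 73 tested members of the 10 families this was so, against 5667 of all 11119 genes tested (51.0%). The median gap between the HL7G arrays, mouse 2 minus mouse 1, was -1.34 over the 73 members and -0.01 over all genes. The median gap between the unstimulated arrays was 0.03, with 42 of the 73 members higher in mouse 2 and gaps such as 1.00 in Slfn2 and -0.70 in Isg15. The median difference was 2.80 in mouse 1 and 1.32 in mouse 2. Usp18, for example, differed by 3.27 in mouse 1 and 2.34 in mouse 2, Mx1 by 3.52 in mouse 1 and 1.83 in mouse 2 and Isg15 by 2.32 in mouse 1 and 1.61 in mouse 2. The agonist arrays, all of mouse 1, had family medians of 6.20 with R848, 5.58 with CpG B and 5.92 with poly I:C, which lay near the 5.76 of the mouse 2 HL7G array and below the 7.23 of the mouse 1 HL7G array. Without the mouse 1 HL7G array the median difference was 1.24, and without that of mouse 2 it was 2.81. Other lists had a gap of the same sign, among them the NF-kB genes (median -0.99, 10 of 10 members higher in mouse 1), costimulation (-0.90), heat shock chaperones (-0.86) and translation factors (-0.81, 28 of 30). Cytokines and chemokines went both ways, with 7 of 11 and 7 of 9 members higher in mouse 1 and median gaps of -0.26 and -0.20. Tnf, Il1b and Il1a had gaps of 0.27, 0.69 and 0.40, and Il6, Ccl5, Ccl4 and Cxcl10 of -0.40, -0.75, -1.10 and -1.56. With 1 array per mouse and group, the gap between mice has no test. The summed T cell markers were also higher on the HL7G array of mouse 1 (1039 against 843) and the B cell markers were not (1045 against 1077), and their part in the gap was not tested.

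**Figure D3:**
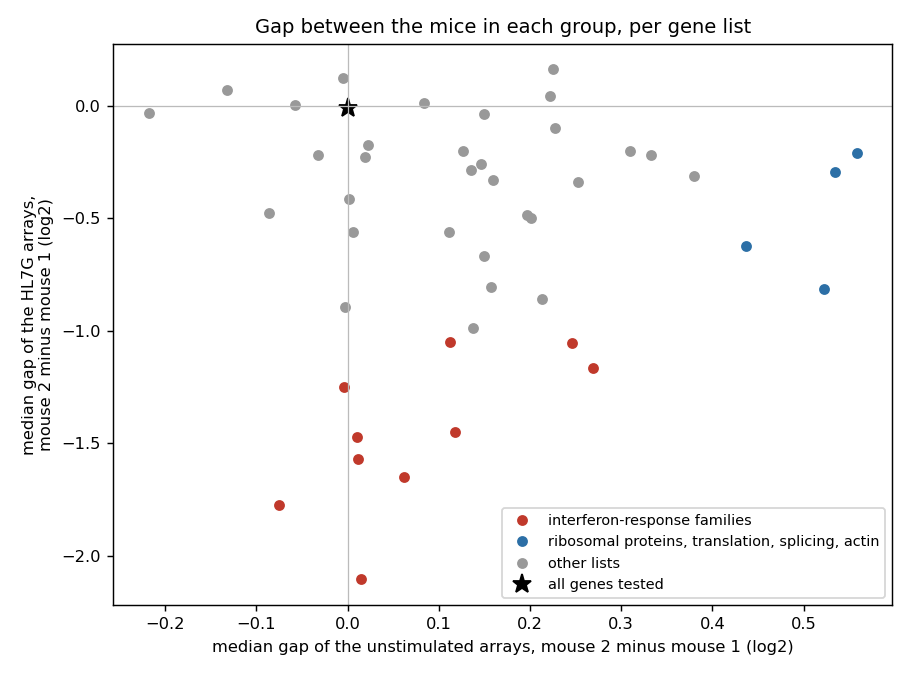
Median gap between the mice (mouse 2 minus mouse 1, log2) on the HL7G arrays (y axis) against that on the unstimulated arrays (x axis), 1 point per pathway list. The interferon-response families (red) lie at -1.05 to -2.10 on the y axis and within 0.27 of 0 on the x axis, while ribosomal, translation, splicing and actin genes (blue) lie at 0.44 to 0.56 on the x axis.

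Of 6 tested TLRs, receptors on the proposed route of the antibody, 1 was called higher, a share near the 16.3% of all genes tested, and 1 lower (1.89% of all genes). The median was 0.31 (0.13 with loess), and 0.02 over all 12 on the array, tested or not. Tlr7, the endosomal sensor of single-stranded RNA, read 3.77 and 3.51 unstimulated, 5.57 and 4.71 with HL7G and 4.08 to 4.17 with the agonists, so both HL7G arrays were above all others (difference 1.496 ± 0.32, adjusted p = 0.0233, a call lost with a variance trend). Tlr7 reached the level of 5 on the mouse 1 HL7G array alone, and so entered the test by being high there. Tlr11 read 5.05 and 5.29 unstimulated and 4.08 and 4.37 with HL7G and fell by 0.95 (adjusted p = 0.0338). Tlr3 and Tlr4 stayed under 5 on every array. TLR trafficking and signalling genes had 12 of 21 members called and a median of 0.97 (0.86 with loess). Unc93b1, which escorts endosomal TLRs, read 4.56 and 5.06 unstimulated and 7.29 and 6.46 with HL7G (difference 2.07 ± 0.33, adjusted p = 0.0136). The chaperone Hsp90b1 rose by 2.25 ± 0.32 and the kinase Ikbke by 1.84 ± 0.24 (1.45 and 1.05 with loess).

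The NADPH oxidase and oxidant defence list had 10 of 16 tested members called higher, with a median of 1.10 (0.60 with loess), and 4 of those calls held with both loess and quantile normalization. Cybb, the catalytic subunit gp91phox, read 4.41 and 4.87 unstimulated and 7.92 and 6.82 with HL7G, against 6.38 to 7.02 with the agonists (difference 2.73 ± 0.38, adjusted p = 0.0120). It kept 2.09 with loess and 2.50 without the mouse 1 unstimulated array. Among antioxidant genes, thioredoxin Txn1 rose by 1.94 ± 0.24, the mitochondrial superoxide dismutase Sod2 by 1.63 ± 0.33 and the haem oxygenase Hmox1 by 1.43 ± 0.36, with Hmox1 higher on the mouse 2 array (6.14 and 6.95) and not called with loess (1.10). Their regulator Nfe2l2 had 0.65 ± 0.22 and was not called.

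The protein C and tissue factor genes showed no shared direction, with 3 of 11 tested members called and a median of 0.01. Procr, which encodes EPCR, read 5.29 and 5.18 unstimulated and 4.63 and 4.82 with HL7G. Both HL7G arrays were below both unstimulated arrays, as for 29.9% of all genes tested. The levels were near the limit of 5, and Procr was not called (difference -0.50 ± 0.21, adjusted p = 0.143). F3, tissue factor, the trigger of coagulation, read 4.92 and 4.86 unstimulated and 4.45 and 4.70 with HL7G (difference -0.32 ± 0.22, adjusted p = 0.32), so no rise of its transcript was seen at 3 h. The called members were thiol isomerases of the endoplasmic reticulum, Pdia3 (1.70 ± 0.28), P4hb (1.12 ± 0.28) and Pdia6 (0.88 ± 0.24, not called with loess at 0.76 or with the mouse as a block at an adjusted p of 0.0734). In the list of LBPA and sphingolipid metabolism 3 of 9 members were called. Pdcd6ip, the LBPA-binding protein Alix, read 4.65 and 4.77 unstimulated and 6.59 and 6.21 with HL7G (difference 1.69 ± 0.23, adjusted p = 0.0120), and Lamp1 and the saposin precursor Psap rose by 1.38 ± 0.21 and 1.64 ± 0.43. Psap was not called with loess (0.95) and had 0.95 without the mouse 1 unstimulated array. Of 9 tested complement genes Cd55, which dissociates the convertases on the cell's own surface, alone was called, at 4.42 and 4.38 unstimulated and 5.42 and 5.53 with HL7G, against 3.86 to 4.47 with the agonists (difference 1.08 ± 0.21, adjusted p = 0.0193). Cd55 reached the level of 5 on the HL7G arrays alone, and so entered the test by being high there. The complement list had 11.1% of tested members called higher, against 16.3% of all genes tested. Its median was 0.09, and -0.10 over all 18 on the array, tested or not.

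Because HL7G is an IgG, genes of Fc receptors and of Syk signalling were listed as well. Of 11 tested members 6 were called, with a median of 0.78 (0.51 with loess). Of these 6 calls 2 held with both loess and quantile normalization. The called members named here are signalling genes, not Fc receptors. Syk, the kinase of activating Fc and antigen receptors, read 5.13 and 5.64 unstimulated and 7.22 and 7.07 with HL7G (difference 1.75 ± 0.25, 1.11 with loess, adjusted p = 0.0120), and the adaptor Pik3ap1 and the exchange factor Vav1 rose by 2.14 ± 0.46 and 1.604 ± 0.25. Btk, a kinase of B and myeloid cells, read 4.01 and 3.83 unstimulated and 4.62 and 5.37 with HL7G (difference 1.07 ± 0.29). Btk reached the level of 5 on the mouse 2 HL7G array alone, and so entered the test by being high there. Btk and Pik3ap1 lost the call with loess (0.80 and 0.96), and Btk also in the blocked fit (adjusted p = 0.0521). The neonatal Fc receptor Fcgrt had -0.53 ± 0.25 and was not called. Casp8, which cuts gasdermin and interleukin-1 beta in some settings, rose by 2.59 ± 0.32, and it was 1 of 3 called among 8 inflammasome and caspase genes (median 0.55, 0.30 with loess, 0.26 without the mouse 1 HL7G array), with Casp4 (1.55 ± 0.38) and the pore former Gsdmd (1.07 ± 0.27), which was not called with loess (0.79). Casp4 read 3.39 and 3.81 unstimulated and 5.71 and 4.59 with HL7G. It reached the level of 5 on the mouse 1 HL7G array alone, and so entered the test by being high there.

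Antigen presentation genes were higher, beside B and T cell markers that were higher as well. Of 16 tested MHC class I pathway genes 11 were called, with a median of 1.44 (0.63 with loess), and 5 of those calls held with both loess and quantile normalization. B2m, the class I light chain, read 5.74 and 7.90 unstimulated and 10.26 and 9.91 with HL7G, with the unstimulated arrays 2.16 apart (difference 3.27 ± 0.62, 1.72 with loess). H2-T23, a nonclassical class I molecule, rose by 2.21 ± 0.38, and H2-K1 had 2.13 ± 0.46, or 0.59 with loess, where it lost its call, and 1.37 without the mouse 1 unstimulated array. Of 10 MHC class II genes 6 were called, and H2-Ab1 read 5.16 and 5.93 unstimulated and 8.45 and 8.09 with HL7G (difference 2.72 ± 0.31, 1.46 with loess, adjusted p = 0.0120). The B cell receptor component Cd79a read 4.99 and 5.60 unstimulated and 6.63 and 6.62 with HL7G, the B cell surface protein Ms4a1 4.51 and 4.81 unstimulated and 6.34 and 6.48 with HL7G, and the T cell receptor chain Cd3g 4.52 and 4.82 unstimulated and 6.90 and 6.68 with HL7G. These 3 rose by 1.33 ± 0.26, 1.75 ± 0.23 and 2.12 ± 0.23, and the HL7G arrays exceeded the agonist ranges of Ms4a1 (5.49 to 6.06) and Cd3g (5.11 to 5.80). Their part in the presentation genes was not tested.

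Surface activation genes were led by Cd69, an early marker of lymphocytes and myeloid cells, at 3.95 and 3.62 unstimulated and 8.95 and 6.18 with HL7G (difference 3.78 ± 0.78, adjusted p = 0.0214). It was 1 of 3 called among 11 tested costimulation genes (median 1.08, 0.69 with loess, 0.66 without the mouse 1 HL7G array), with the checkpoint ligand Cd274 (2.00 ± 0.44) and Cd83 (1.47 ± 0.40), and Cd83 lost the call with loess (0.31). Cd40 and Icam1 had 1.73 ± 0.54 and 1.35 ± 0.42 and were not called (adjusted p = 0.0677 and 0.0684, and 0.0305 and 0.0357 with the mouse as a block). Of the BCL2 family of survival and death genes, Mcl1, a short-lived survival factor, was the called member of 12 tested (1.87 ± 0.31), and with loess it had 0.68 and was not called. Of 10 tested sterol genes Hmgcs1 (1.39 ± 0.29) and Srebf2 (1.27 ± 0.30) were called, and of 10 proliferation genes Mcm7 (0.86 ± 0.24). Of these 3 Srebf2 and Mcm7 lost the call with loess (0.31 and 0.80), and Mcm7 also in the blocked fit (adjusted p = 0.0712). The shares of the BCL2 and proliferation lists called higher were below the 16.3% of all genes tested. The share of the sterol list was little above it.

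Genes of protein synthesis and RNA processing were higher too, and these depended on the scaling. Of 55 tested cytosolic ribosomal protein genes 33 were called higher and none lower, with a median of 1.28. The median was 0.36 with loess, and 12 of the 33 calls held with both loess and quantile normalization. Of 30 translation factors 22 were called (median 1.76, 1.15 with loess), and of 30 hnRNP and splicing factors 25 (median 1.65, 1.02 with loess). Here the gap between mice lay on the unstimulated arrays as well. Mouse 2 minus mouse 1 had a median of 0.56 there for ribosomal genes, 0.52 for translation factors and 0.44 for splicing factors. Eef1a1, which delivers aminoacyl-tRNA, read 6.61 and 9.46 unstimulated and 10.80 and 10.38 with HL7G, and was not called (difference 2.55 ± 0.80, adjusted p = 0.0679, 0.0319 with the mouse as a block). Its difference was 1.12 without the mouse 1 unstimulated array. For the splicing regulators Hnrnpa2b1 and Sf3b1 both HL7G arrays lay above both unstimulated arrays, as for 40.6% of all genes tested. Hnrnpa2b1 read 4.40 and 5.16 unstimulated and 7.92 and 7.43 with HL7G, and Sf3b1 4.71 and 5.54 unstimulated and 7.48 and 7.82 with HL7G, differences of 2.89 ± 0.32 and 2.52 ± 0.32.

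Cytoskeletal and mitochondrial transcripts showed the same dependence. Of 22 tested actin cytoskeleton genes 17 were called, with a median of 1.35 (0.78 with loess). Actb, the major actin, read 5.02 and 6.81 unstimulated and 9.34 and 8.31 with HL7G (difference 2.91 ± 0.59, 1.45 with loess, 2.01 without the mouse 1 unstimulated array), and the membrane linker Msn and the Arp2/3 subunit Actr3 rose by 2.79 ± 0.44 and 2.65 ± 0.48 (1.49 and 1.54 with loess). Of 10 mitochondrially encoded genes 6 were called higher with a median of 0.95, but loess turned that median to -0.68 and 0 of the 6 calls held with both loess and quantile normalization. CYTB, the cytochrome b gene, had 0.96 ± 0.21 in the deposited values and -0.68 with loess. Nuclear-encoded respiratory chain genes had 15 of 48 called higher and 1 lower (median 0.74, 0.40 with loess, 0.41 without the mouse 1 HL7G array). Gapdh, a glycolytic enzyme often used as a reference, fell, at 9.13 and 8.75 unstimulated and 7.75 and 8.07 with HL7G (difference -1.03 ± 0.25, adjusted p = 0.0317), and 3 of 12 glycolysis genes were called, 2 of them higher (16.7%, near the 16.3% of all genes tested). Gapdh had -2.58 with loess, and its call ended with a variance trend (adjusted p = 0.177), with the mean of its 3 probe sets (0.0678) and with the mean-level filter (0.0536).

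Part of the protein folding, degradation and transport genes rose as well. Of 14 tested heat shock chaperones 8 were called (median 1.57, 1.06 with loess, 0.97 without the mouse 1 HL7G array), among them Hspa8 (2.32 ± 0.34, 0.86 with loess) and the chaperonin subunit Cct2 (2.41 ± 0.54, not called with loess at 1.28). Of 16 genes of the unfolded protein response 9 were called, with the lectin chaperones Canx and Calr at 2.50 ± 0.38 and 2.30 ± 0.31, while Hspa5, the BiP chaperone that marks stress of the endoplasmic reticulum, had 0.86 ± 0.37 and was not called. Proteasome subunits had 10 of 27 called (median 0.82), among them Psmc6 (2.04 ± 0.27) and Psmd8 (1.95 ± 0.24). Rab GTPases of vesicle traffic had 6 of 19 called, and all 6 calls held with both loess and quantile normalization. Rab10, of endosomal recycling and TLR4 delivery, read 3.21 and 3.68 unstimulated and 7.16 and 5.80 with HL7G (difference 3.04 ± 0.44, adjusted p = 0.0120), and Rab21, of early endosomes, rose by 2.38 ± 0.35. Of 22 lysosomal and vacuolar ATPase genes 8 were called, among them the proton pump subunit Atp6v1e1, at 4.18 and 4.35 unstimulated and 6.45 and 6.17 with HL7G (difference 2.05 ± 0.22).

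**Figure D4:**
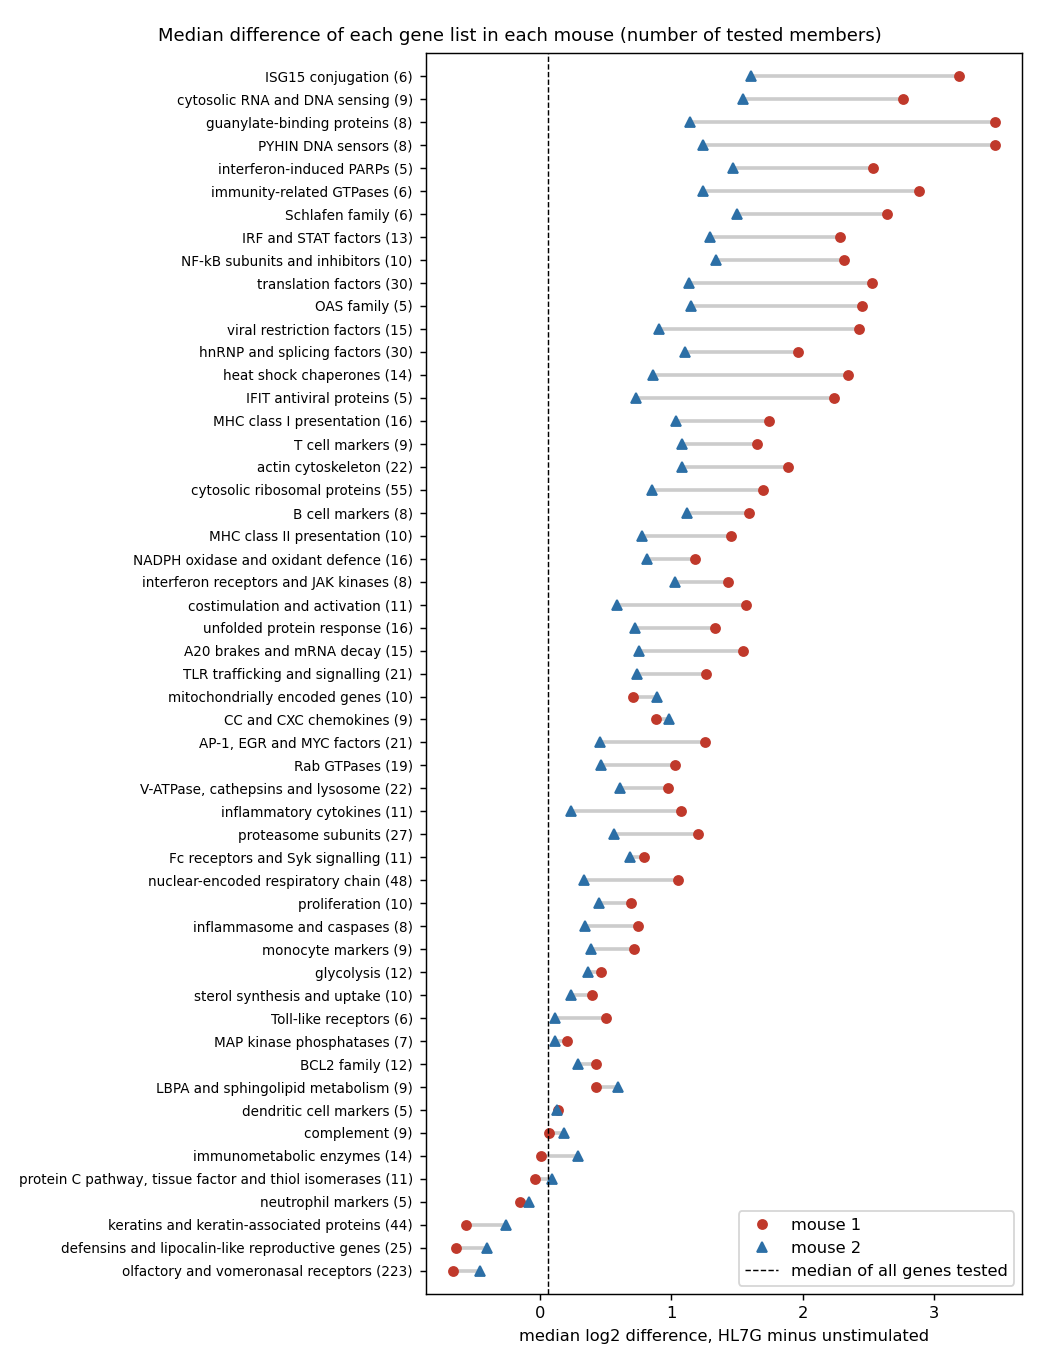
Median log2 difference between HL7G and unstimulated samples (x axis) of the tested members of each gene list (y axis, number of tested members in parentheses) in mouse 1 and in mouse 2, for lists with at least 5 tested members. The dashed line is the median of 0.06 over all genes tested, and the lists range from 3.47 in mouse 1 for the guanylate-binding proteins to -0.66 in mouse 1 for olfactory and vomeronasal receptors.

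Among the 210 genes called lower were receptors of smell and pheromones. Of 223 tested olfactory and vomeronasal receptors 41 were called lower and none higher, with a median of -0.56. Of 44 tested keratins 2 and of 25 tested defensin-type and lipocalin-like reproductive genes 3 were called lower (medians -0.45 and -0.52). Of all genes tested 1.89% were called lower. Over all 1409 receptors on the array, tested or not, the median was -0.29, and with no filter 84 were called lower. Over all 104 keratins and all 78 reproductive genes on the array the medians were -0.33 and -0.37. The median over all 22180 genes was -0.12. These 3 lists were chosen by gene name, and their tested members lay near the level of 5. The tested receptors had medians of 5.26 and 5.27 on the unstimulated arrays and 4.66 and 4.84 on the HL7G arrays. Zscan4b, a zinc finger gene of early embryos, read 5.13 and 4.65 unstimulated and 3.32 and 2.86 with HL7G (difference -1.80 ± 0.27, adjusted p = 0.0124, a call lost with a variance trend). Speer4c, a testis gene of a multicopy family, read 6.76 and 6.64 unstimulated and 5.47 and 5.41 with HL7G (difference -1.26 ± 0.21).

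By the smaller of both within-mouse differences, with small RNAs, predicted loci and antigen receptor segments left out, the largest rises were those of Rps13, Ifi209, Rps20 and Ptprc. Rps13, a protein of the small ribosomal subunit, read 2.40 and 3.22 unstimulated and 7.46 and 7.36 with HL7G, and Snord1b, a small nucleolar RNA, read 2.67 and 3.73 unstimulated and 8.20 and 8.18 with HL7G. These were the 2 genes called in every fit that left out 1 of the 4 arrays (differences 4.596 ± 0.30 and 4.99 ± 0.35). Ptprc, the leukocyte phosphatase CD45, read 4.06 and 5.44 unstimulated and 8.09 and 8.30 with HL7G (difference 3.44 ± 0.43, adjusted p = 0.0120). Pnn and Nucks1, nuclear proteins of splicing and chromatin, were also among the 12 largest rises. Pnn read 4.01 and 4.96 unstimulated and 7.44 and 7.61 with HL7G, and Nucks1 3.70 and 4.12 unstimulated and 7.12 and 6.65 with HL7G. The widest gaps between mice were those of Ifi204, high on the mouse 1 HL7G array alone, and of Taf1d, low on the mouse 1 unstimulated array alone (7.60 and 11.29 against 11.38 and 11.45).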

How the data were processed

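The 4 arrays of the comparison (HL7G and unstimulated, mouse 1 and mouse 2) were analysed with the 3 agonist arrays of mouse 1. The authors deposited log2 expression values per probe set, and RMA, Affymetrix Expression Console and Transcriptome Analysis Console are named in the submitters' processing notes. No scanner files were used here, so background correction and scaling are those of the deposited values, and the number of arrays limits the precision. Nothing in the sources used here says more of the replicates than the mouse number, so p-values rest on 2 animals.

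Of 41345 probe sets 23521 carried 1 gene symbol in the platform annotation, 1814 several and 16010 none, and 23328 of the single symbols were found in RefSeq. The brightest single-symbol probe set on average stood for a gene. Genes with a level of at least 5 on at least 1 of the 7 arrays were tested with limma 3.58.1 (R 4.3.3), in 1 fit of 5 groups with 2 residual degrees of freedom, and p-values were adjusted by Benjamini-Hochberg over 11119 genes. Same-numbered arrays come from 1 mouse and are thus paired. Over all genes, the deviations of same-numbered HL7G and unstimulated arrays from their group means correlated at r = -0.146 across genes, which are not independent replicates. The script recovered known changes when tested on simulated data. The simulated arrays had independent noise and none that read low, so they do not bear on calls that rest on the mouse 1 unstimulated array.

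The comparison, the gene lists and the pattern lists were chosen with earlier results of these data known. Genes were named by rule: the 12 largest rises and 8 largest falls by the smaller within-mouse difference, up to 4 called and 2 uncalled members with the largest difference in each list, genes called in every fit without 1 array, the 6 largest gaps between mice, and a few genes always named. The text gives part of these. Alternatives were the mouse as a block, 3 other filters, the mean of all probe sets, a variance trend, 3 rescalings and leaving out each array. Summed cell type levels are sums of linear values (2 to the power of the level). Promoters came from RefSeq, build GRCm38.p6.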

Additional observations from a re-analysis of the deposited data

How the results depend on the processing

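With the mouse as a block, the paired fit called 1698 genes higher and 148 lower, with 1688 of its calls shared with the unpaired fit. Among the genes named as called or not called, it ended 3 calls (Btk, Mcm7, Pdia6) and added 9, and its value is given beside those. Leaving out each of the 4 arrays in turn gave between 2 and 2779 genes called higher and between 0 and 516 called lower. The lowest counts came without the mouse 1 unstimulated array, where the 2 calls were Rps13 and Snord1b, and the highest without the mouse 2 HL7G array. Without the mouse 2 unstimulated array 817 were higher and 45 lower, and without the mouse 1 HL7G array 1223 and 125. A filter on the mean level, which left 1337 genes at 6 or more, gave 417 higher and 40 lower, and with no filter 336 of 22180 genes were lower. Rescaling moved the split. Genes called higher were 89.6% of all calls in the deposited values, 78.4% with median centring (409 lower), 68.7% with cyclic loess (625 lower) and 57.6% with quantile normalization (1027 lower). The median over all genes tested was 0.06 in the deposited values, -0.07, -0.08 and -0.12 under those 3 rescalings, and changes within 0.12 of 0 have no settled direction. The cause of these moves was not tested. The count of genes called higher kept within 1.5 times of 1814 under each alternative but the mean-level filter and 3 of the 4 left-out arrays. Of the 113 genes named with a call, 22 lost it with loess with their direction kept, and 13 with quantile normalization, among the latter Cd79a. Calls were lost with a variance trend for Btk, CYTB, Cd83, Dusp2, Gapdh, Il6, Mcm7, Tlr7 and Zscan4b, with the mean over probe sets for Gapdh, Gsdmd, Hspa8 and Irf8, and with median centring for Btk, Cd83, Gsdmd, Ifnar2, Mcm7, Oasl1 and Pdia6. Named calls lost numbered 40 when the mouse 2 unstimulated array was left out, 13 when the HL7G array of mouse 1 was, and 4 when that of mouse 2 was. Ifit3 turned to -0.39 with loess and -0.24 with quantile normalization, and CYTB to -0.68 with loess. Array signals near the level of 5 limit the dimmest genes, such as Il6, Procr and F3.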

Other observations

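The interferon-type letters GAAANNGAAA were unevenly spread over the families. They stood in the promoters of 4 of 5 tested IFIT genes with an entry, 5 of 7 PYHIN genes, 3 of 3 guanylate-binding protein genes and 4 of 4 immunity-related GTPase genes. Of 6 cytosolic RNA and DNA sensing genes with an entry 0 held them, although 7 of the 9 tested members of that list were called higher. Over all genes the letters hardly separated the directions, with 4.94% of the promoters of genes called higher, 4.76% of those called lower and 2.90% of those not called. The letters TGANTCA, the core of the AP-1 site (the same on both strands but for N), stood in 5.29% of the promoters of genes called higher, 10.2% of those called lower and 6.52% of all genes tested. In the 4 inflammatory groups they stood in 9 of 22 promoters of members called higher (40.9%). These are descriptions of letters, with no test.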
